A study of Mus musculus with 6 samples.

Results

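The 25 genes described here make cholesterol or control how much of it is made. They were taken by symbol, through GENCODE release M21 (build GRCm38), from a table of read counts for 18951 genes, and all 25 were in the table and passed the filter on low counts, as did 14621 genes in all. There were 19 enzymes of the pathway from acetyl-CoA to cholesterol (Acat2, Hmgcs1, Mvk, Pmvk, Mvd, Idi1, Fdps, Fdft1, Sqle, Lss, Cyp51, Tm7sf2, Lbr, Msmo1, Nsdhl, Hsd17b7, Ebp, Sc5d and Dhcr7), 5 genes of SREBP control (Srebf1, Srebf2, Scap, Insig1 and Insig2), and Stard4, a carrier that moves cholesterol between membranes. Other enzymes of the pathway were not analysed here.

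The study asked what silencing of Rbm22, a spliceosome protein gene, does to the transcriptome of heart muscle cells. Total RNA was sequenced from 6 primary cultures described as cardiomyocytes of C57BL/6 mice (C57BL/6J in the protocols) at postnatal day 1, used where staining for cardiac troponin T gave a purity above 97.5%. Of these, 3 received siRNA against Rbm22 (si-Rbm22) and 3 a scramble siRNA (si-Control), and all were cultured for 48 h afterwards. Replicates are called biological in the protocols, with no word on separate isolations. The p-values therefore weigh the group difference only against the spread of these samples, which may be partly technical.

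Cholesterol synthesis is controlled by feedback. SREBP-2, encoded by Srebf2, and SREBP-1, encoded by Srebf1, are made as membrane proteins of the endoplasmic reticulum bound to the sterol sensor SCAP. When sterols are low, SCAP carries them to the Golgi, where proteases release the transcription factor, and when sterols are high, INSIG-1 and INSIG-2 hold SCAP back. The released factors bind sterol response elements, often beside a CCAAT box bound by NF-Y, and raise the mRNAs of the enzymes, of Insig1 and of Srebf2 itself.

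The promoters of 4 members are shown for the place of these genes in the results below. Srebf2 was, with Acat2, among the deepest falls, and Hsd17b7 rose the most. Hmgcs1 was the enzyme with the highest level per length in both groups, and Insig1 is the feedback gene. The promoters are RefSeq sequences of build GRCm38.p6, 5′ to 3′ on the strand of the gene. They run from 250 bases before the RefSeq start up to that start or to the GENCODE gene start, whichever comes first. Capitals mark matches, on either strand, to the sterol response element core TCACNCCA and to the CCAAT box. The stretches lie at chr15:82147019-82147180 (plus strand, Srebf2), chr13:119690101-119690350 (plus strand, Hmgcs1), chr5:28071162-28071362 (plus strand, Insig1) and chr1:169969242-169969455 (minus strand, Hsd17b7).
Srebf2: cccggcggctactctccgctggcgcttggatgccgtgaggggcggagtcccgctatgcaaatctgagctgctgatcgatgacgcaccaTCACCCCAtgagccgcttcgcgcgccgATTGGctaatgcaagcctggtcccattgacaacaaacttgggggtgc
Hmgcs1: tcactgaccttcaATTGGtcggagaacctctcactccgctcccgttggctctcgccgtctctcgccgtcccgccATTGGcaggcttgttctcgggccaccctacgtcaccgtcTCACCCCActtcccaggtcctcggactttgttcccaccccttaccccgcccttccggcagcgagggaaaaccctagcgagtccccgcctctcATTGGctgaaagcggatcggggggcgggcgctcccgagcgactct
Insig1: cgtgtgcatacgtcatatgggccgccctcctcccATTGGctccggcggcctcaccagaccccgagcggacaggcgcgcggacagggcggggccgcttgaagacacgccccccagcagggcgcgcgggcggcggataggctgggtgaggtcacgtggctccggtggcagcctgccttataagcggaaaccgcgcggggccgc
Hsd17b7: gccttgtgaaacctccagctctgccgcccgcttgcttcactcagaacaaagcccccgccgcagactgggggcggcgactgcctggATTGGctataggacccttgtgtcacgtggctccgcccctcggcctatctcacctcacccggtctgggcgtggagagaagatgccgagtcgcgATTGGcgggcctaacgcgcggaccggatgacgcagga

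Among the 21 members with a promoter sequence in the RefSeq table, the 250 bases before the start held TCACNCCA in 3 (Srebf2, Hmgcs1 and Msmo1). Here and below, a gene with several RefSeq starts was counted if the window of any of them held a match. Over all 11174 tested genes with such a window the share was 4.11%. The Srebf2 and Hmgcs1 matches were both TCACCCCA, beginning 162 and 137 bases before the start, and the Msmo1 match was TCACTCCA, 177 bases before it. CCAAT was found in 19 of the 21, against 40.14% of the tested genes, with Scap and Acat2 as the exceptions. The GC box GGGCGG, not marked above, was found in 20 of the 21, against 62.44% of the tested genes. The E-box CACGTG, also not marked, was found in 5 (Scap, Insig1, Hsd17b7, Sc5d and Dhcr7), against 9.55%. Some genes had matches in only part of their windows. This held for CCAAT in Dhcr7, Insig2, Pmvk and Srebf1, and for the E-box in Dhcr7 and Scap. It also held for the GC box in Dhcr7, Insig2, Srebf1 and Scap. A match is a run of letters and not a measured binding site. Of the 3 genes with TCACNCCA, Srebf2 and Hmgcs1 were lower in si-Rbm22 and Msmo1 did not pass the test. A link between matches and direction of change was not tested.

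The libraries of both groups held similar numbers of reads, and the groups stood apart in cell content. Totals ran from 34269042 to 37344860 reads. Rbm22 itself was at 23.2 ± 1.79 CPM in the si-Control-labelled libraries, while the si-Rbm22 libraries had 13.5 ± 0.892 CPM (mean ± SD, n = 3 per group), where CPM means read counts relative to a library total scaled by the TMM method, in the usual counts-per-million unit. The si-Control-labelled libraries went against their cell type label. Of 10 cardiomyocyte markers, Myl7, Myl2, Mybpc3, Pln and Nppa had 0 reads in all 3 of them, and the 10 summed to 40.4 to 46.3 CPM there against 23260 to 36750 CPM in si-Rbm22. Skeletal muscle precursor markers, 6 genes led by Myod1 and Cdh15, summed to 243 to 269 CPM in the si-Control-labelled libraries and at most 0.0278 CPM in si-Rbm22. Of 8 fibroblast markers, 5 were lower in si-Rbm22, Dcn and Tcf21 were higher and Lum did not pass, and the sum of the 8, carried by the collagens Col1a1, Col1a2 and Col3a1, was 21410 to 23250 against 5623 to 5804 CPM. Dcn went from 235 to 443 CPM and Tcf21 from 0 to 57.1 CPM (group means). Other lists summed to higher levels in si-Rbm22, endothelial markers (7 genes) to 4.84 to 5.35 against 387 to 430 CPM, macrophage markers (6 genes) to 1.74 to 2.97 against 68.5 to 80.2 CPM, and mesothelial markers (6 genes) to 50.0 to 53.6 against 1921 to 2130 CPM. In every result below, Rbm22 siRNA and this difference in cell content cannot be told apart. In such bulk libraries, fewer cells of a type and less RNA per cell cannot be told apart either.

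Across the 25 genes, transcripts were mostly lower in the si-Rbm22 libraries, by moderate amounts, and a few enzymes went the other way. By edgeR's quasi-likelihood test, at an adjusted p under 0.05 (Benjamini-Hochberg over all tested genes), 22 of the 25 differed, where 82.0% of all tested genes did. Of the members, 6 were higher in si-Rbm22 (43.1% of all tested genes were) and 16 were lower (38.9% of all tested genes). The median log2 fold change, si-Rbm22 over si-Control, was −0.46 over the members and 0.05 over all tested genes. Changes of at least 2-fold were found for 6 members, Srebf2, Acat2, Fdps, Nsdhl and Ebp downward and Hsd17b7 upward, against 43.1% of all tested genes in either direction. The CPM values of the groups did not overlap for 21 of the 25, against 84.2% of all tested genes. Together the 25 transcripts took 0.273% of reads in the si-Control-labelled libraries and 0.195% in si-Rbm22.

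**Figure D1:**
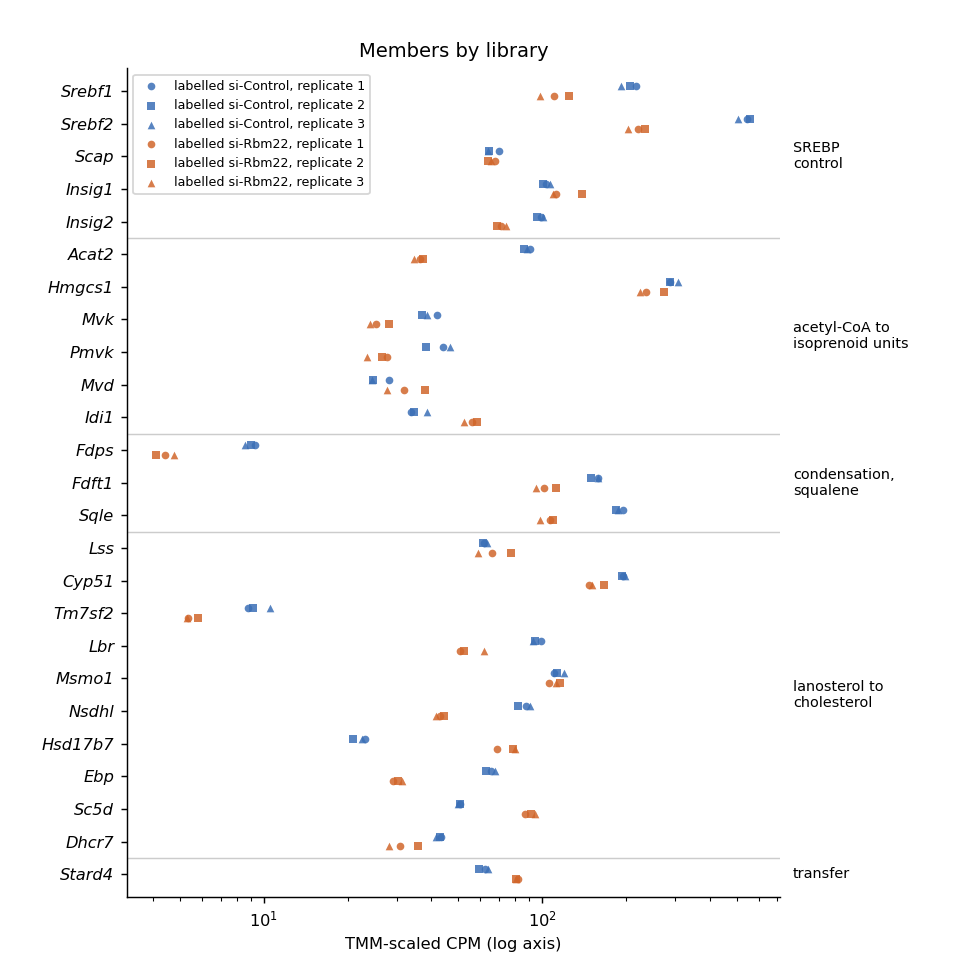
TMM-scaled CPM of the 25 genes (log axis) in each of the 6 libraries, in the order of their roles, with 1 point per library. The 3 libraries of a group lie close together for most genes. The groups are far apart for Srebf2, Acat2, Nsdhl, Ebp and Hsd17b7 and overlap for Scap, Mvd, Lss and Msmo1.

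The SREBP genes fell, the sensor Scap did not pass the test, and the INSIG genes moved in opposite directions. Srebf2 (chromosome 15, 82147181 to 82205379), the main activator of cholesterol genes, was at 547, 560 and 508 CPM in the si-Control-labelled libraries and 221, 234 and 204 CPM in si-Rbm22. Every si-Rbm22 library was thus under the level of each si-Control-labelled library. The fall was 2.45-fold (log2 fold change −1.29 with SE 0.065, edgeR adjusted p = 2.25e-10), and Srebf2 and Acat2 fell about equally, further than the other members. Srebf1 (chromosome 11, 60199089 to 60222581), whose product leans towards fatty acid genes, was at 217, 208 and 192 CPM against 111, 125 and 98.4 CPM, also without overlap. It shares 1.93% of its exon bases with Rai1 on the opposite strand and 1.17% with Mir6922 on the same strand. Its log2 fold change was −0.89 (SE 0.082, edgeR adjusted p = 5.2e-07).

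Scap (chromosome 9, 110333288 to 110384950), the sterol sensor that escorts both SREBPs, was at 70.2, 64.6 and 64.1 CPM against 67.5, 63.7 and 65.4 CPM. The groups overlapped (log2 fold change −0.02, SE 0.061, edgeR adjusted p = 0.804), and only 1.3% of all tested genes had a smaller absolute change. An annotated transcript on the opposite strand shares 13.2% of the Scap exon bases, so its counts are uncertain. Insig1 (chromosome 5, 28071363 to 28078662), the INSIG gene that SREBPs induce, was at 103, 101 and 107 CPM against 112, 139 and 110 CPM. The groups did not overlap, but the si-Rbm22 values were led by replicate 2. The rise was small (log2 fold change 0.21, SE 0.084, edgeR adjusted p = 0.0331), and without si-Rbm22 replicate 2 it was 0.09 with an edgeR adjusted p of 0.207. The call was also lost without any 1 of the si-Control-labelled libraries (edgeR adjusted p of 0.0709 to 0.127). Insig2 (chromosome 1, 121304353 to 121332589), the INSIG gene less tied to SREBP activity, fell from 98.8, 96.0 and 100.4 CPM to 70.9, 68.9 and 74.5 CPM (log2 fold change −0.46, SE 0.057, edgeR adjusted p = 3.66e-06).

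Enzymes of the first steps, which join acetyl-CoA into the C5 isoprenoid units, split into 4 that fell and 2 that rose. Acat2 (chromosome 17, 12942890 to 12960747), the cytosolic thiolase of the first step, was at 90.6, 86.3 and 88.2 CPM in the si-Control-labelled libraries and 36.3, 37.5 and 34.7 CPM in si-Rbm22. The ranges were far apart, and the fall, at −1.29 on the log2 scale (SE 0.061, edgeR adjusted p = 1.07e-10), was as deep as that of Srebf2. Acat2 is uncertain in part, since Acat3 on the same chromosome is 97.7% identical over 1477 bases and Tcp1, a chaperonin gene, shares a stretch of 445 bases at 98.7% identity, so that reads could be split between them. Acat3 had 231, 188 and 402 reads against 11, 6 and 12, and Tcp1 had 12656 to 13891 reads a library over both groups, while Acat2 had 3282, 3131 and 3062 reads against 1330, 1348 and 1303.

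Hmgcs1 (chromosome 13, 119690379 to 119708260), the HMG-CoA synthase, was at 289, 289 and 307 CPM against 237, 274 and 225 CPM. The groups were separate but near each other, with si-Rbm22 replicate 2 closest to the other group (log2 fold change −0.27, SE 0.071, edgeR adjusted p = 0.00349). Its counts and its place by level are uncertain to the extent that Gm48342, an antisense gene, shares 12.1% of its exon bases. Both kinases that add phosphates to mevalonate, Mvk and Pmvk, fell by 0.60 (SE 0.082) and 0.74 (SE 0.090) on the log2 scale. Mvk lay at 37.1 to 42.1 CPM in the si-Control-labelled libraries and 24.0 to 28.1 CPM in si-Rbm22, and Pmvk at 38.4 to 46.7 against 23.4 to 27.6 CPM.

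The enzymes that follow these kinases rose. Idi1 (chromosome 13, 8885501 to 8892451), which isomerizes isopentenyl diphosphate, was at 33.9, 34.7 and 38.7 CPM against 55.8, 58.6 and 52.5 CPM. All 3 si-Rbm22 values were above the other group (log2 fold change 0.64, SE 0.073, edgeR adjusted p = 1.74e-06), although processed copies up to 100% identical over 684 bases, and 9.22% of exon bases shared with Gm48574 on the opposite strand, make its counts uncertain. Mvd, the decarboxylase that makes isopentenyl diphosphate, was at 28.3, 24.7 and 24.5 CPM against 31.8, 37.8 and 27.7 CPM. Its groups overlapped at 1 library each, and the call (log2 fold change 0.33, SE 0.109, edgeR adjusted p = 0.0141) was lost when si-Rbm22 replicate 2 or si-Control replicate 2 or 3 was left out, with edgeR adjusted p between 0.0668 and 0.0752.

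All 3 genes that build squalene and oxidize it were lower in si-Rbm22. Sqle (chromosome 15, 59315077 to 59331192), the squalene epoxidase, was at 196, 184 and 188 CPM against 107, 110 and 98.2 CPM. Its log2 fold change was −0.85 (SE 0.059, edgeR adjusted p = 8.2e-09), with tight values in both groups. Fdft1, the squalene synthase, lay at 150 to 159 CPM in the si-Control-labelled libraries and 95.2 to 112 CPM in si-Rbm22 (log2 fold change −0.60, SE 0.065). It shares 18.3% of its exon bases with Ctsb on the opposite strand, which had 24111 to 30527 reads a library. A processed copy, Gm6781, is 97.4% identical over 1249 bases, so the Fdft1 counts are uncertain. Fdps, the farnesyl diphosphate synthase, had 338, 326 and 296 reads against 161, 148 and 179 (log2 fold change −1.01, SE 0.146, edgeR adjusted p = 1.69e-05). Per length, Fdps and Tm7sf2 had the lowest levels of the 25, and 26.7% of the Fdps exon bases are shared with Gm43738 on the same strand, so its level is uncertain.

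The steps from lanosterol to cholesterol held the strongest rise of the 25 and 2 of the 5 falls of at least 2-fold, those of Nsdhl and Ebp. In both cases the enzyme of the next step rose. Hsd17b7 (chromosome 1, 169949535 to 169969241), the 3-keto-steroid reductase that completes removal of the C4 methyl groups, was at 23.1, 20.9 and 22.4 CPM in the si-Control-labelled libraries and 68.9, 78.5 and 79.9 CPM in si-Rbm22. The gap between the groups was wider than the spread of either, and the rise was 3.42-fold (log2 fold change 1.77, SE 0.077, edgeR adjusted p = 4.45e-11). Nsdhl (chromosome X, 72918557 to 72958514), the dehydrogenase that acts just before it, went from 87.3, 82.1 and 90.6 CPM to 43.1, 44.4 and 41.6 CPM. This was a fall of 1.01 on the log2 scale (SE 0.062, edgeR adjusted p = 2.06e-09). Msmo1, the methyl oxidase that starts the same removal, was at 110, 113 and 119 CPM against 106, 116 and 112 CPM and did not pass (log2 fold change −0.03, SE 0.059, edgeR adjusted p = 0.622). These 3 genes of C4 demethylation gave a fall, a rise and values that overlapped.

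A similar split was seen in the last steps. Ebp (chromosome X, 8185329 to 8193512), the sterol isomerase that moves the ring double bond, was at 65.7, 62.8 and 67.5 CPM against 29.1, 30.3 and 31.5 CPM (log2 fold change −1.11, SE 0.065, edgeR adjusted p = 1.31e-09). Sc5d (chromosome 9, 42251595 to 42264256), the desaturase that acts on the product of EBP, was at 50.5, 50.5 and 50.0 CPM against 86.9, 91.3 and 94.1 CPM. It rose by 0.85 on the log2 scale (SE 0.058, edgeR adjusted p = 6.39e-09), and its 3 values in the si-Control-labelled libraries had the smallest spread of any member. Dhcr7, the reductase mutated in Smith-Lemli-Opitz syndrome, fell by 0.43 (SE 0.086), from 41.5 to 43.2 CPM down to 28.2 to 36.0 CPM.

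The earlier sterol ring enzymes moved less or fell. Lss, which closes squalene epoxide into lanosterol, was at 61.9, 61.1 and 63.1 CPM against 66.3, 77.0 and 58.7 CPM. The si-Rbm22 values spanned the other group and the gene did not pass (log2 fold change 0.12, SE 0.085, edgeR adjusted p = 0.217), although without si-Rbm22 replicate 3 it did, at 0.20 (edgeR adjusted p = 0.00602). An antisense gene shares 3.53% of the Lss exon bases. Cyp51, the lanosterol demethylase, fell by 0.34 (SE 0.060, edgeR adjusted p = 0.000128), from 193 to 199 CPM down to 147 to 167 CPM, and shares 3.76% of its exon bases with Akap9 on the opposite strand. Lbr and Tm7sf2 both encode C14 sterol reductases, Lbr also anchoring heterochromatin at the nuclear lamina. Both fell by 0.79 on the log2 scale (SE 0.074 for Lbr and 0.141 for Tm7sf2), and Tm7sf2 had only 195 to 364 reads a library and shares 12.1% of its exon bases with Vps51 on the same strand. Lbr shares 1.45% with Gm26004 on the same strand and 9.24% with Dnah14 on the opposite strand, which had 0 to 4 reads a library. Stard4, the sterol carrier, was at 62.2, 59.5 and 63.8 CPM against 81.9, 80.6 and 80.5 CPM and rose by 0.39 (SE 0.057, edgeR adjusted p = 2e-05).

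**Figure D2:**
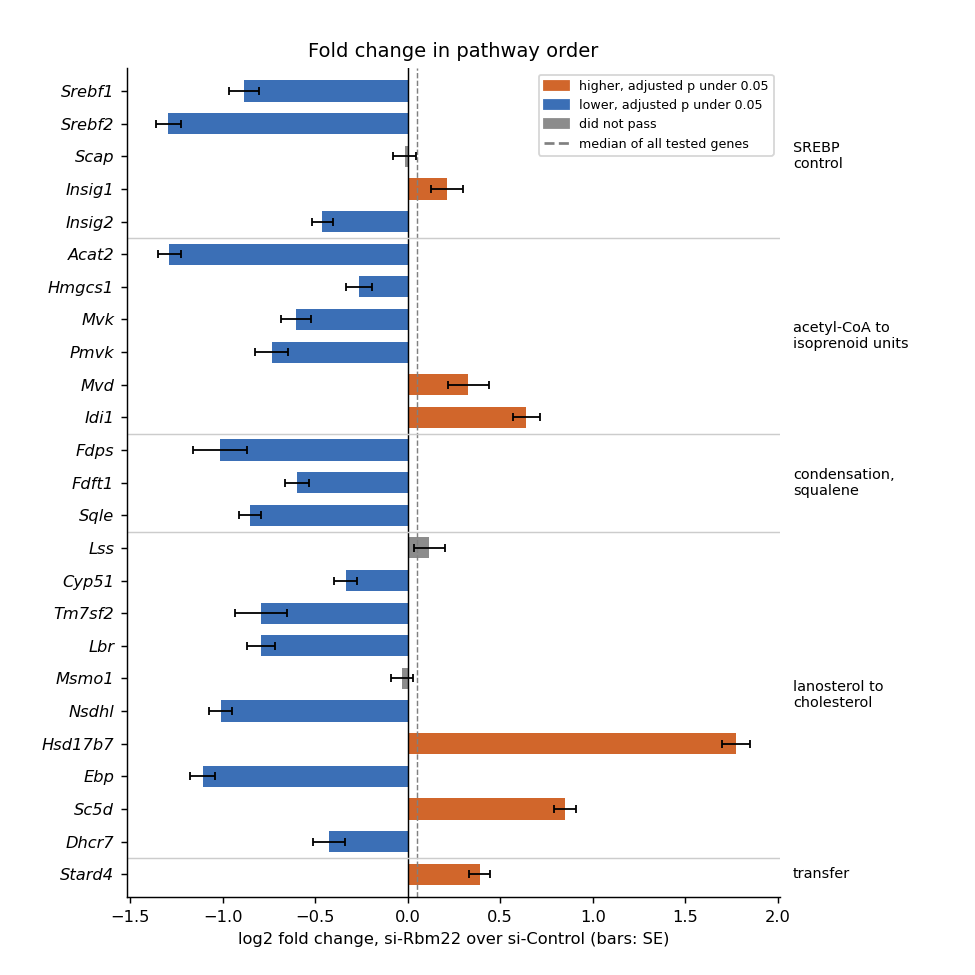
Log2 fold change of each gene, si-Rbm22 over the si-Control-labelled libraries, in the order of roles and pathway steps, with SE bars. Bars pointing left are genes lower in si-Rbm22, and the dashed line is the median of all tested genes, 0.05. The longest bars are those of Hsd17b7 at 1.77 to the right and of Srebf2 and Acat2 at −1.29 to the left.

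Levels of different genes were compared as TMM-scaled CPM per kilobase of exon. In the si-Control-labelled libraries the order was led by Srebf2 at 74.9 ± 3.77, followed by Hmgcs1 at 64.2 ± 2.24 and Cyp51 at 44.3 ± 0.708 CPM per kilobase (SD, n = 3 each). Fdft1 (36.9 ± 1.16), Srebf1 (36.5 ± 2.30) and Acat2 (34.7 ± 0.841) came next and lay within about their spread of each other. In si-Rbm22 the order was Hmgcs1 (53.4 ± 5.63), Insig1 (38.9 ± 5.36), Cyp51 (35.1 ± 2.40) and Srebf2 (30.6 ± 2.08 CPM per kilobase), and Insig1 and Cyp51 did not differ beyond their spread. Hsd17b7 moved from place 23 of 25 to place 15, and Acat2 from place 6 to place 17. Fdps and Tm7sf2 were at the foot of the order in both groups, at 1.05 to 2.15 CPM per kilobase. With the longest transcript as the length, Msmo1 moved from place 14 to 10 in the si-Control-labelled libraries and from 10 to 5 in si-Rbm22, while Srebf2, Hmgcs1 and Cyp51 stayed the first 3 in the former.

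**Figure D3:**
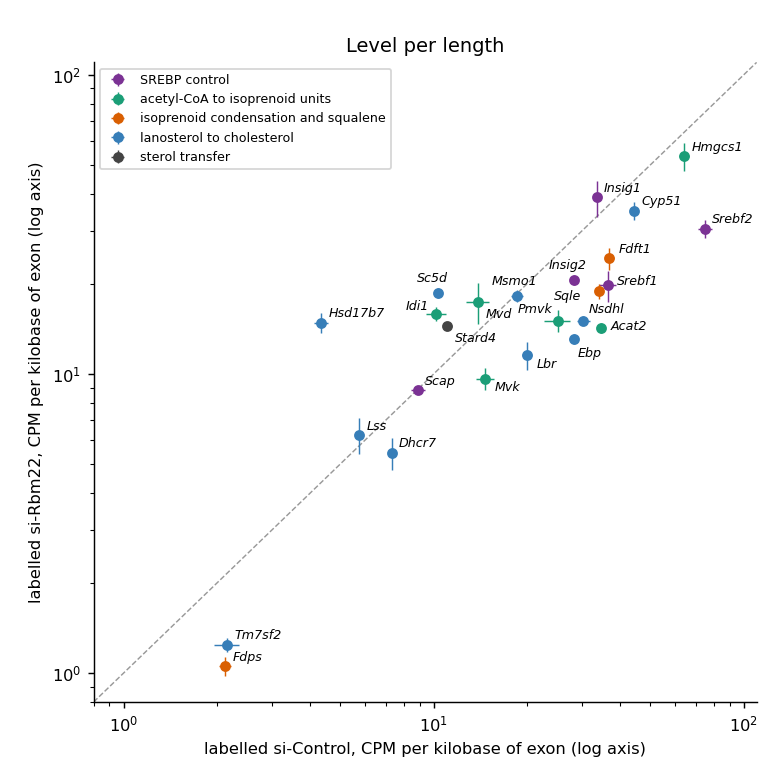
Level per length of the 25 genes, mean of the si-Control-labelled libraries on the x axis against mean of the si-Rbm22 libraries on the y axis, both in TMM-scaled CPM per kilobase of exon on log axes, with SD bars. Points under the dashed line of equal level are lower in si-Rbm22. Hsd17b7 lies farthest above the line, at 4.34 against 14.8, and Srebf2 and Acat2 lie farthest below it.

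The balance between related members was taken as the ratio of their levels per length in each library. Insig1 over Insig2 was 1.18, 1.18 and 1.20 in the si-Control-labelled libraries and 1.78, 2.27 and 1.65 in si-Rbm22, so Insig1 made up more of the pair in all 3 of the latter. Srebf1 over Srebf2 was 0.507, 0.473 and 0.481 against 0.640, 0.681 and 0.614, so the shift towards Srebf1 came with a fall of both. Tm7sf2 over Lbr was 0.108 ± 0.0136 against 0.108 ± 0.0140 (SD, n = 3 each), and both genes fell together. Further ratios were formed after the values were seen. Hsd17b7 over Nsdhl went from 0.148, 0.142 and 0.138 to 0.894, 0.989 and 1.07. Sc5d over Ebp went from 0.365, 0.382 and 0.352 to 1.42, 1.43 and 1.42. In both pairs the enzyme of the later step gained on the one before it. Each pair joined a gene that rose to one that fell, both without overlap. The gain and the separation of the ratios thus followed from the choice of pairs. Other pairs, also of a gene that rose and one that fell, went the opposite way, the enzyme of the earlier step gaining. Idi1 over Fdps went from 4.81 ± 0.562 to 15.2 ± 1.94, and Sc5d over Dhcr7 from 1.41 ± 0.0251 to 3.46 ± 0.48 (SD, n = 3 each).

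The 3 si-Rbm22 libraries also differed among themselves, and many of the 25 genes did so in the same order. Replicate 2 was the highest of the 3 for 16 of the 25 genes, against 33.5% of all tested genes, and replicate 3 was the lowest for 16, against 37.4%. Mvd was 1.37 times as high in replicate 2 as in replicate 3, Lss 1.31 times, and Insig1, Srebf1 and Dhcr7 1.27 times each. Hmgcs1 was 1.22 times as high and Srebf2 1.15 times. Fdps, Lbr and Insig2 ran the other way, at 0.862, 0.850 and 0.925. So did Ebp, Sc5d, Scap and Hsd17b7 by less, at 0.962, 0.971, 0.974 and 0.983, and Stard4 was at 1.0. The si-Control-labelled libraries also had a shared order. Their replicate 2 was the lowest for 14 of the 25 genes, against 31.6% of all tested genes, and the highest for 1, against 28.3%. The spread was smaller in these libraries: the median coefficient of variation of the 25 genes was 3.73% there and 6.84% in si-Rbm22, against 5.64% and 8.71% over all tested genes. The 10 cardiomyocyte markers also differed between the si-Rbm22 libraries, from 23260 to 36750 CPM, and their part in the order of the si-Rbm22 libraries was not tested.

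**Figure D4:**
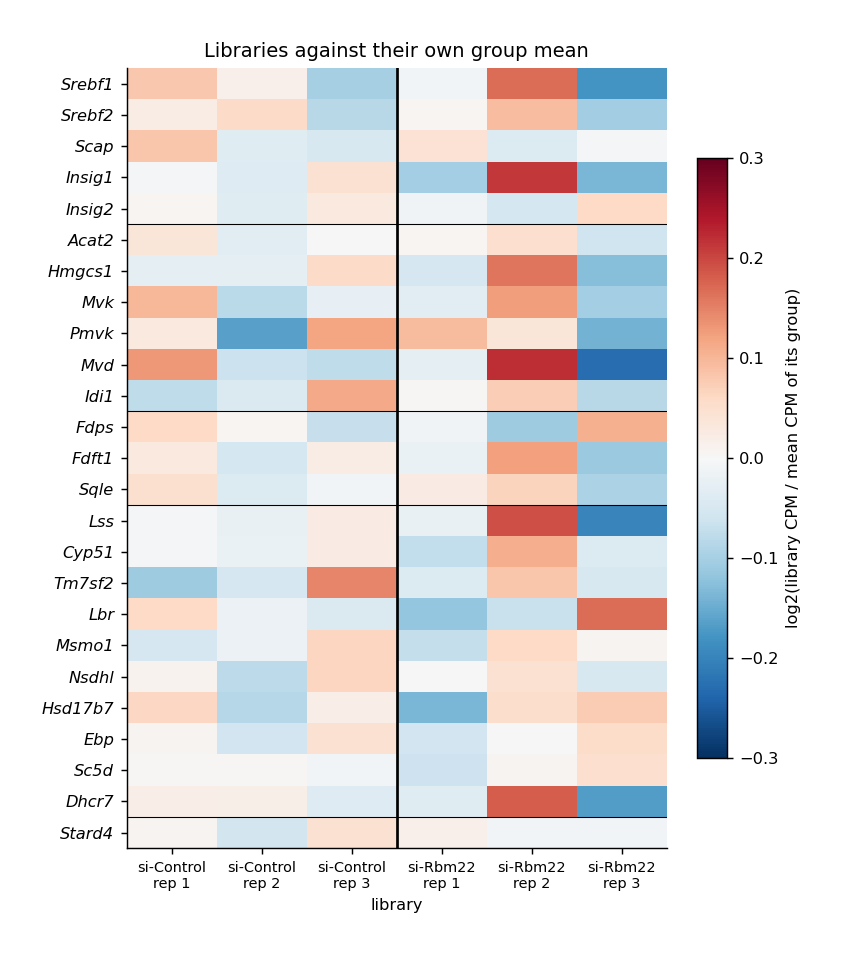
Each library's CPM relative to the mean of its own group, as log2 (colour scale from −0.3 to 0.3), for the 25 genes in rows and the 6 libraries in columns. The si-Rbm22 replicate 2 column is mostly red and the replicate 3 column mostly blue, with Insig1, Mvd, Lss, Srebf1, Hmgcs1 and Dhcr7 the deepest in colour. The si-Control-labelled libraries are paler.

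Genes that work around the pathway moved in both directions, where 43.1% of all tested genes were higher and 38.9% lower in si-Rbm22. In the list of SREBP transport, cleavage and turnover, 7 of 21 genes were higher in si-Rbm22 and 13 lower, with a median log2 fold change of −0.45. Rnf145, a ubiquitin ligase gene that acts with the INSIG proteins in sterol-driven degradation, fell by 1.17 (SE 0.056), and Erlin1 fell by 1.24 (SE 0.070). Fbxw7, part of the ligase that removes nuclear SREBPs, rose by 1.17 (SE 0.071). Of 16 fatty acid synthesis and desaturation genes, many of them SREBP-1 targets, 2 rose and 9 fell (median −0.39). Elovl6, an elongase, fell by 0.79 (SE 0.060) and Acss2, the cytosolic acetyl-CoA synthetase, by 0.71 (SE 0.067), while Lpin1, a phosphatidate phosphatase, rose by 1.64 (SE 0.107).

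The remaining lists held both rises and falls. Of 17 genes of sterol uptake, transfer and storage, 10 rose and 6 fell (median 0.30), with the endocytic receptor gene Lrp1 lower (log2 fold change −2.39, SE 0.066) and Nceh1, a cholesteryl ester hydrolase, up by 1.88 (SE 0.065). Of 10 genes of the sterol receptor LXR and sterol export, 5 rose and 4 fell (median 0.33), and with at least 10 CPM required in 3 libraries 2 rose and 4 fell. The replicate block and limma-voom each gave 5 and 5. Mylip, the LXR-induced ligase of lipoprotein receptors, fell by 1.43 (SE 0.089), while Scarb1 rose by 1.31 (SE 0.075). Cyp27a1 rose by 2.97 (SE 0.22) from only 0.989 CPM, and Nr1h3, encoding LXR-alpha, by 3.00 (SE 0.316) from only 0.620 CPM. Abca1, also of this list, rose by 2.99 (SE 0.182), from 12.8 to 101.8 CPM (group means). Macrophage markers summed to 1.74 to 2.97 against 68.5 to 80.2 CPM in the same libraries, and their part in the rise of Nr1h3 was not tested. The branch to other isoprenoids (16 genes) had 7 rises and 5 falls (median 0.12), shares near those of all tested genes, with Rce1, a protease for prenylated proteins, down by 1.27 (SE 0.087) and Pggt1b, a prenyltransferase subunit, up by 0.99 (SE 0.094). Over all tested genes the median was 0.05, and 82.0% passed.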

How the data were processed

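Counts of reads for each Ensembl gene in 6 libraries were deposited by the authors. They are whole numbers with unequal column totals and were taken as raw, without normalization. Tools named, per the submitters' processing notes and without versions or settings, are fastp, HISAT2, HTSeq and DESeq2, with GRCm38 as the build. The strand setting of the counting is not given in the sources used here, so counts of genes that share exon bases are uncertain, and the share is given for each. Symbols, positions and exon lengths came from GENCODE M21. Counts were tested with edgeR 4.0.16 in R 4.3.3 (TMM, filterByExpr, robust quasi-likelihood fit, group as the only term), and SE means the size of the log2 fold change over the square root of the F statistic. The procedure was tested on simulated data. Alternatives were other scalings and filters, each library left out, a replicate block, DESeq2 1.42.0 and limma-voom (limma 3.58.1). The members and gene lists were chosen with earlier results of these data known. All 25 members are named. From each other pathway list, up to 4 genes past the test with the smallest p could be named. Abca1 was named in addition. No pair of replicates agreed within sampling noise (chi-square per degree of freedom at least 4.52).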

Additional observations from a re-analysis of the deposited data

How the results depend on the processing

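The counts of 6 higher and 16 lower members, out of 25, stayed within 1.5 times under other size factors, filters, tests, library omissions and an adjusted p under 0.01. With at least 2-fold required they were 1 and 5. In settings chosen after seeing the data, with fewer genes counted, they were 5 and 10 among the 17 members without a copy of at least 95% identity or 10% or more of their exon bases shared, and 5 and 8 among the 14 that share no exon base and have no such copy. RLE size factors, library totals, no filter, DESeq2, limma-voom and leaving out mitochondrial transcripts changed no member's call or direction. With 10 CPM in 3 libraries, Fdps and Tm7sf2 were not tested, and 2 members that had not passed changed sign, Scap to 0.023 and Msmo1 to 0.008. Leaving out each library in turn gave log2 fold changes of 0.089 to 0.266 for Insig1 (call lost without si-Rbm22 replicate 2 or any 1 library labelled si-Control), 0.199 to 0.420 for Mvd (lost in 3 cases), 0.005 to 0.197 for Lss (passed without si-Rbm22 replicate 3) and −0.059 to 0.019 for Scap (which never passed). The cause was not tested. Titles number the replicates in both groups alike, but the deviations of same-numbered libraries correlated at only −0.02 to 0.04, so the numbers pair nothing that can be seen. With the replicate block, 6 members were higher and 16 lower, and no member's call changed. Depth limits Fdps most, with 148 to 179 reads a library in si-Rbm22.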
